A study of Mus musculus with 8 samples.

Results

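The genes described here are Spi1 and 7 other members of the ETS transcription factor family, Fli1, Erg, Ets1, Ets2, Elf1, Etv6 and Gabpa, in a mouse erythroleukaemia line, MEL. These 8 genes, of 21535 protein-coding genes placed on a strand, form a list set by name, and every peak that overlapped a gene's RefSeq GRCm38 interval, widened by 20 kb on each side, was taken. That gave 285 peaks of the 208064 in all 8 peak lists: 46 at promoters, 192 in gene bodies, 17 upstream and 30 downstream. A promoter here is 1000 bp on each side of the outer 5′ end of the RefSeq interval, the body is the rest of the interval, and a peak was assigned to the promoter first, then the body, then a flank.

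The peaks come from CUT&Tag, in which an antibody tethers a transposase to chromatin and the tagged DNA is sequenced. The antibodies were raised against the C-terminal domain of Rpb1, the largest subunit of RNA polymerase II, phosphorylated on serine 5 (Ser5P), a mark of polymerase that has initiated, or on serine 2 (Ser2P), a mark of polymerase that elongates. There were 4 groups of 2 libraries each: Ser5P in Myrlin knockdown (KD) cells, Ser5P in dCas control cells, Ser2P in KD cells and Ser2P in control cells. Myrlin is a noncoding RNA made at an enhancer of Myb, and KD and control cells are both labelled as dCas lines. The labels give 1 KD and 1 control genotype and say nothing of clones. They call the libraries biological replicates but do not describe separate cultures, and the p-values given below therefore reflect only how much these libraries vary, part of which may be technical.

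ETS proteins share a DNA-binding domain that recognises sites around a GGAA core. Spi1 encodes PU.1, which directs myeloid and B-cell development; in Friend virus erythroleukaemias, the source of MEL lines, proviral insertion near Spi1 keeps PU.1 on and holds cells short of red cell maturation. Fli1 is needed for megakaryocytes, Erg for blood stem cells and endothelium, and Ets1 for lymphoid cells, whereas Etv6 is a repressor needed for bone marrow haematopoiesis and Gabpa is the DNA-binding subunit of GABP, which acts at many housekeeping and mitochondrial genes.

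The promoter sequences below show the starts that carried both marks in every library, at Ets2, Elf1, Etv6 and Gabpa, and the outer start of Erg, which carried neither. They are from RefSeq, build GRCm38.p6, 300 bases each, 5′ to 3′ on the strand of the gene, from 250 bases before to 50 after the table's start, and capitals mark GGAA or its reverse complement TTCC. The table held 8 starts for 5 of the 8 genes; Spi1, Fli1 and Ets1 were not among them.
Ets2, chr16:95702157-95702456, plus strand: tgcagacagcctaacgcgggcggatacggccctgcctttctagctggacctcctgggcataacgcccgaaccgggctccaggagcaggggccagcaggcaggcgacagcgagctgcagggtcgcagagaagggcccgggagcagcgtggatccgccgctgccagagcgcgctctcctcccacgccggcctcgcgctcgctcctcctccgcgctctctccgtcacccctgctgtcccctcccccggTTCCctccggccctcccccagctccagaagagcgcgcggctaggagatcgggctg
Elf1, chr14:79480944-79481243, plus strand: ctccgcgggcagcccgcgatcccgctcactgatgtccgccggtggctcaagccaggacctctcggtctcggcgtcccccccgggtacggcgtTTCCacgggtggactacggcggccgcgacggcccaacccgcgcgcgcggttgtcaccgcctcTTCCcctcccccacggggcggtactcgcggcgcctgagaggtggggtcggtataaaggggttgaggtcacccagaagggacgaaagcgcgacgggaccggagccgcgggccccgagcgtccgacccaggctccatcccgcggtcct
Etv6, chr6:134035450-134035749, plus strand: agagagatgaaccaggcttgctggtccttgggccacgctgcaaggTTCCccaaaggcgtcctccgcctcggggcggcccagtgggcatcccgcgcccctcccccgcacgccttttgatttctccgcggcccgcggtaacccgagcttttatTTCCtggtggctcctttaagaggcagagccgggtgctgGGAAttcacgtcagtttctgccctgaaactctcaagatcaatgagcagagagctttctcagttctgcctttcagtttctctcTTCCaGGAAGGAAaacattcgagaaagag
Gabpa, chr16:84834874-84835173, plus strand: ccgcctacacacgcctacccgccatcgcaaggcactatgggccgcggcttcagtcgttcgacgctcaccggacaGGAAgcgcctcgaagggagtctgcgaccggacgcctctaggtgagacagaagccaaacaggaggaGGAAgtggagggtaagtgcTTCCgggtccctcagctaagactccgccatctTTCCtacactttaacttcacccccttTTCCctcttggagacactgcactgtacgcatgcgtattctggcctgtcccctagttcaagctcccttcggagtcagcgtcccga
Erg, chr16:95586544-95586843, minus strand: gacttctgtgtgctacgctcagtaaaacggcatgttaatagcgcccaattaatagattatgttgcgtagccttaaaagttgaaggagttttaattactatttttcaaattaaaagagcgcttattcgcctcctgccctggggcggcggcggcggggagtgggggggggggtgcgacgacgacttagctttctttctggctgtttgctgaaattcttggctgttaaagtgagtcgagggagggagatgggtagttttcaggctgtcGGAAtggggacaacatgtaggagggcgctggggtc
The motif GGAA, counted on both strands, occurred 1 time in the Ets2 and Erg windows, 2 times at Elf1, 5 times at Gabpa and 6 times at Etv6, where 2 of the copies lie side by side. Of 32851 RefSeq promoters of the same length, 96.0% held at least 1 copy and the median was 3. The longer core CGGAAG, which contains GGAA, was found on either strand only at Gabpa among the 5 windows shown, with 1 copy, and in 16.9% of all promoters. G and C made up 73.0% of the Elf1 window, 71.7% of the Ets2 window, 59.3% at Gabpa and 57.3% at Etv6, against 50.3% at Erg and a median of 52.7% over all promoters.

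Each peak list was called for 1 library, and the lists held 21574 to 25441 peaks for Ser5P and 20793 to 32125 for Ser2P. Depth relative to one another, read from the most frequent background pileup of each list, was 0.647 and 0.839 in the Ser5P KD libraries against 0.568 and 0.641 in the controls. For Ser2P it was 1.12 and 1.03 in the KD libraries against 0.783 and 0.438 in the controls, so that both Ser2P KD libraries were the deeper ones and Ser2P control 2 was the shallowest of all 8. Peaks were also wider in KD, with medians of 533.5 and 532 bp against 486 and 497 bp for Ser5P, and 478 and 479 bp against 428 and 381 bp for Ser2P. Over the Myb enhancer that lies 81 kb upstream of its gene and gives rise to Myrlin, Ser5P peaks covered 275 and 0 bp in KD against 513 and 237 bp in the controls, and Ser2P peaks covered 0 and 316 bp in KD against 302 and 0 bp in the controls. Both pairs overlap, so peak coverage at this enhancer did not separate KD from control. Erythroid markers carried Ser5P in all 4 libraries at 5 of 12 promoters, among them Klf1, Epor and Tfrc, against 37.7% of all genes, a share close to that of the markers. They carried it at 6 of 12 gene bodies, Gata1 included, against 19.7% of all genes. No promoter of the 10 lymphoid, 10 myeloid or 6 fibroblast and epithelial markers did, and 2 of 8 megakaryocyte and mast cell promoters, Itga2b and Gp1ba, did. Gene bodies with Ser5P in all 4 libraries numbered 0 of 10 for lymphoid and 1 of 10 for myeloid markers (Csf1r). They numbered 2 of 8 for megakaryocyte and mast cell markers and 2 of 6 for fibroblast and epithelial ones (Col1a1 and Cdh1). Body peaks were thus not limited to erythroid markers.

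Spi1 had the highest share of its body under peaks of the 8 genes, for both marks. Peaks covered 11.3% of its body in the Ser5P libraries on average and 7.65% in the Ser2P libraries, at percentiles 95.4 and 93.0 of all genes with a body peak of that mark, whose medians were 1.16% and 1.22%. The body is counted from the outer RefSeq end, so it includes the inner starts described below. Shares were not matched for gene length, which was 33.4 kb at Spi1 and ran from 18.6 kb at Ets2 to 234 kb at Etv6. Spi1 lies at chr2:91082374-91115759, on the plus strand. Over all 8 libraries it had 7 promoter and 22 body peaks, with 13 peaks in the upstream flank of 20 kb and 10 in the downstream one. These 52 peaks merged into 12 regions, and 3 of those regions, 1 upstream and 2 in the body, were found in all 8 libraries. The one with its strongest summit 11.9 kb upstream of the outer 5′ end is the promoter of Slc39a13, which encodes a zinc transporter and is transcribed away from Spi1. Another, 2090 bp wide, had its strongest summit 4.29 kb inside the gene, and the last, 1469 bp wide, had its own 14.5 kb inside it.

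The RefSeq 5′ end is not the only start known for Spi1. GENCODE vM1, an annotation of an earlier build that lists Spi1 under its older name Sfpi1, has transcript starts 18.976 and 19.66 kb from the 3′ end in addition to outer starts 33.348 and 33.366 kb from it. The inner region marked in all 8 libraries, chr2:91096432-91097900, spans 17.9 to 19.3 kb from the 3′ end and so takes in the first of these starts and ends 333 bp short of the next. The gene is 33386 bp long in RefSeq and 33367 bp in vM1, so such matches are approximate. An upstream regulatory element of Spi1 is known in mice about 14 kb from its promoter. Measured from the inner starts, that distance comes near the RefSeq outer 5′ end, and measured from the outer 5′ end it comes near Slc39a13. A window of 2000 bp each side of the point 14 kb beyond the outer end held 372 and 349 bp of Ser5P peaks in KD and 135 bp in each control, all at the edge of the Slc39a13 promoter region.

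The Spi1 peaks lay in a high local pileup. MACS2 judges each peak against a local background, and both the summit pileup and that background could be solved from the deposited fold and p. Whether a control library was used was not given, so it is not known which reads make up this background. Between 20 kb upstream and 5 kb inside the gene, the local background was 49.1 to 101 times the library depth in the Ser5P KD lists and 18.6 to 79.5 times in the Ser5P controls. It was 33.9 to 47.3 times in the Ser2P KD lists and 27.1 to 35.3 times in the Ser2P controls, whereas the median peak of a list had 4.07 to 4.95 times the depth. These values lie at percentiles 93.5 to 99.9 of their own lists. Folds were 1.91 to 2.38 for the region that overlaps the outer promoter window and, for the strongest peak of each library, 2.45 to 2.97 for the region at 4.29 kb. The region 11.9 kb upstream, in the same stretch, had folds of 5.59 to 7.84, so a high background did not go with a low fold everywhere. Summits were 172 and 207 reads deep at 4.29 kb in the Ser5P KD libraries against 110 and 132 in the controls, and 123 and 102 in the Ser2P KD libraries against 60 and 32 in the controls. Pileups are not corrected for depth, and a peak list holds no measure of DNA content, for which the background was not corrected either.

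Background was lower farther out on both sides, without a clean limit. Over a scan of 200 kb in either direction, with limits chosen after the values were seen, 32 peaks between 25 kb upstream and 5 kb inside had a median background of 40.5 times the depth, with 10.6 times as the lowest and 101 times as the highest. The 67 peaks farther upstream had a median of 4.95 times and at most 12.1 times, and the 92 peaks farther downstream had a median of 7.24 times and at most 22.9 times, so the ranges overlap. At the inner region 14.5 kb from the outer end, folds were 4.45 and 4.03 in the Ser5P KD libraries against 7.29 and 5.94 in the controls, and 3.50 and 5.14 in the Ser2P KD libraries against 5.42 and 4.74 in the controls; each belongs to its own list. The other 6 genes with peaks had median background percentiles between 9.50 at Ets1 and 68.8 at Elf1, against 98.7 at Spi1.

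**Figure D1:**
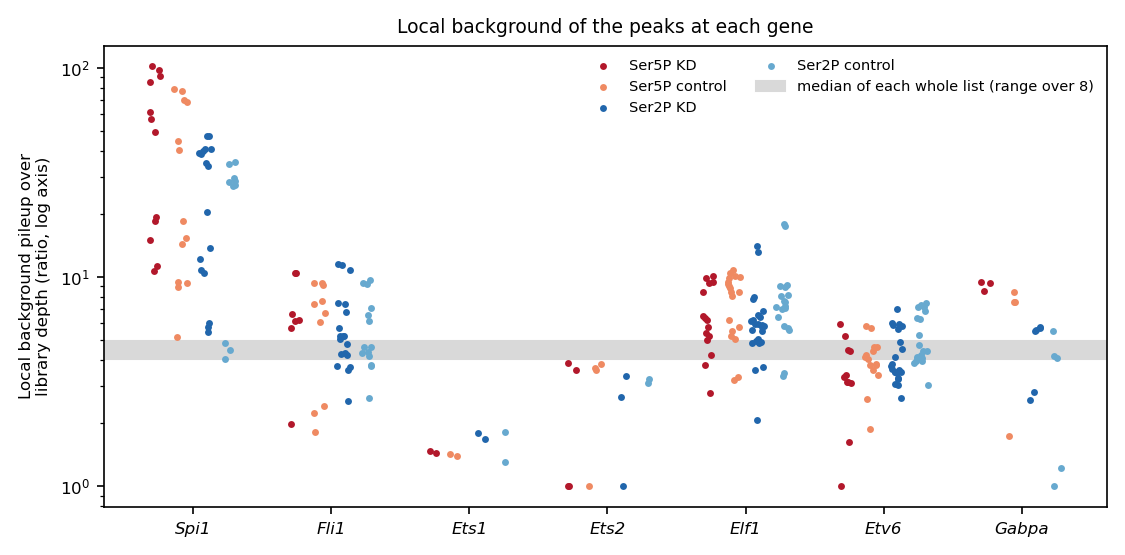
Local background pileup of every peak at 7 of the 8 genes (Erg had no peak), as a ratio to the depth of its library on a log axis, by antibody and cell line; the grey band is the range over 8 libraries of the median of each whole list, 4.07 to 4.95. The Spi1 peaks reach 101, and those of the other genes reach 17.8 at most.

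Between KD and control, the smallest unadjusted p at Spi1 was in its flanks. There Ser2P peaks covered 3056 and 3226 bp in KD and 827 and 604 bp in the controls, groups that did not overlap. Both KD values lay above both controls at 44.0% of the 13635 genes with a Ser2P flank peak. The covered share was 6.22 percentage points higher in KD (SE 1.01; limma, unadjusted p = 0.000449, Benjamini-Hochberg adjusted p = 0.342), and with flanks of 50 kb it was 3.20 points higher (limma adjusted p = 0.0479). Over all genes tested the median difference was 0.81 points, in the same direction. Part of the Spi1 difference lay upstream, where Ser2P covered 1742 and 1673 bp in KD against 827 and 604 bp in the controls. The peak at the Slc39a13 promoter made up 1412 and 1100 bp of this in KD and all of it in the controls.

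Among the promoter, body, upstream and downstream windows of the 8 genes, the only KD-only call was in the Spi1 downstream flank. Such a call means a peak in both KD libraries and in neither control. Ser2P covered 1314 and 1553 bp there in KD and 0 bp in both controls, and 2.28% of all genes had the same call. In promoters and bodies, where none of the 8 genes was called, KD-only calls took 0.409% of genes for Ser5P promoters, 1.1% for Ser2P promoters, 1.0% for Ser5P bodies and 2.05% for Ser2P bodies. Control-only calls took 0.446%, 0.2%, 1.38% and 0.594% in the same order. The call was lost at a −log10 q of at least 5, with equal numbers of peaks and with a 50 kb flank. The main region, chr2:91124703-91125754, lies in the neighbour Mybpc3, which encodes a myosin-binding protein of heart muscle and whose 5′ end is 35.7 kb from that of Spi1. Ser5P marked the same region in all 4 libraries, with downstream coverage of 929 and 947 bp in KD against 353 and 357 bp in the controls. Its Ser5P flank as a whole was covered over 2130 and 2508 bp in KD against 1191 and 1569 bp in the controls, a difference of 2.41 points (SE 0.69; limma adjusted p = 0.650); with 50 kb flanks it was 0.86 points. Depth and peak width differ between KD and control in the same direction, and the alternatives bear on this in part. The Ser2P flank difference was 5.04 points after thinning to the shallowest library, 3.71 points with equal numbers of peaks and 3.23 points at a −log10 q of at least 5.

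Inside Spi1, Ser2P peaks covered 3624 and 3385 bp of the body in KD and 2018 and 885 bp in the controls, without overlap. That is a difference of 6.34 points (SE 1.77; limma adjusted p = 0.495), and 3.97 points after thinning. Ser5P did not separate the cell lines there, with 3943 and 3138 bp in KD and 3964 and 3529 bp in the controls. At the outer promoter, Ser5P covered 663 and 711 bp in KD and 613 and 567 bp in the controls. Ser2P there covered 533 and 685 bp in KD and 641 and 0 bp in the controls, so Ser2P control 2, the shallowest library, was the one without a peak. The difference of the KD effect between the marks, Ser5P minus Ser2P, was -6.98 points in the body (SE 2.38; limma adjusted p = 0.608) and -3.81 points in the flanks (SE 1.06; limma adjusted p = 0.489).

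The genes whose coverage pattern came nearest to that of Spi1, by Euclidean distance over 16 values (promoter and body shares in 8 libraries), were BC107364, Pigv, Bloc1s2, Dpcd and Erf, at distances of 0.19 to 0.23. Erf is itself an ETS family repressor. Its promoter was covered over 29.1% on average against 27.6% for Spi1, and its body over 3.12% against 9.45%.

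Fli1, on the minus strand at chr9:32422204-32543432, had 50 peaks and none within 1000 bp of its outer 5′ end in any library. Instead 3 body regions, with summits 3.12, 22.0 and 34.6 kb inside the gene, were marked in all 8 libraries, with median folds of 6.56, 8.52 and 6.85. The first of them spans 118 to 119 kb from the 3′ end and comes within 120 bp of the Fli1 start in GENCODE vM1, 119.181 kb from that end, though the gene is 121229 bp long in RefSeq and 119182 bp in vM1. Ser2P covered 4622 and 4340 bp of the body in KD and 3658 and 1848 bp in the controls (1.44 points, SE 0.86, limma adjusted p = 0.635). Ser5P covered 1999 and 2963 bp in KD and 2906 and 2930 bp in the controls, which overlap.

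Ets1, also on chromosome 9, at chr9:32636241-32757820 on the plus strand, had a single marked place. One region 59.8 kb inside the gene, chr9:32695588-32696414, held 1 peak in each of the 8 libraries and was its only region. It spans 61.4 to 62.2 kb from the 3′ end, and GENCODE vM1 lists an Ets1 start 61.778 kb from it. Ser5P there covered 693 and 645 bp in KD and 548 and 406 bp in the controls, without overlap; 13.6% of genes with a Ser5P body peak had both KD values above both controls. Ser2P covered 372 and 532 bp in KD and 412 and 409 bp in the controls. Its median background percentile, 9.50, was the lowest of the 7 genes with peaks, so this peak stood on a quiet stretch.

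Erg had no peak of either mark in any of the 8 libraries over its 227 kb interval, chr16:95359169-95586600 on the minus strand, and 20 kb around it. The 3 starts that RefSeq gives it, 0.007, 56.2 and 127 kb from the outer end, were all uncovered. Of all genes, 54.5% had no Ser5P peak at the promoter and 60.8% none in the body, so an unmarked gene is common in these lists. A peak list cannot tell low signal from none.

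Ets2, which is also on chromosome 16 and is known for roles in macrophages and placenta, was marked at its promoter in every library and nowhere in its body. At chr16:95702407-95721049, plus strand, Ser5P covered 1044 and 876 bp of the promoter window in KD and 492 and 944 bp in the controls. Ser2P covered 869 and 1161 bp in KD and 1007 and 801 bp in the controls. Both pairs overlap. The summit of the strongest promoter peak lay between -0.458 and 0.082 kb from the start, within the sequence printed above in 5 of 8 libraries, and the median fold was 7.57. A region 35.8 kb from the start, in the downstream flank, was found in 4 libraries, 3 of them Ser5P.

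Elf1, a regulator of blood and endothelial genes, had the most peaks, 77 in 16 regions with the flanks included. Its outer 5′ end at chr14:79481174 lies 94 bp from that of Wbp4, a splicing factor gene on the opposite strand, so the promoter peaks cannot be told apart between them. The promoter was covered by Ser5P over 894 and 1118 bp in KD and 804 and 761 bp in the controls (11.2 points, SE 4.97, limma adjusted p = 0.650; 5.57 points without KD 2 and 16.8 without KD 1), and by Ser2P over 1072 and 888 bp in KD and 892 and 875 bp in the controls. Only the Ser5P groups are apart. The strongest fold near Elf1, a median of 11.5, belongs to the promoter of Sugt1, a chaperone gene in its downstream flank. Inside Elf1, the region at 49.1 kb was marked in all 8 libraries. That at 65.3 kb was marked in all 4 Ser2P libraries and no Ser5P library, with folds of 3.05 to 3.56. Of 29631 body regions of all genes, 0.334% had that pattern.

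RefSeq gives Elf1 another start 34.5 kb inside the gene. Within 1000 bp of it, Ser5P covered 312 and 343 bp in KD and 0 bp in both controls. Ser2P covered 466 and 345 bp in KD, and 350 and 0 bp in the controls, so 1 control had it too. Of 32851 starts in the RefSeq promoter table, 0.39% were KD-only for Ser5P by the same rule. This start was singled out after its values were seen.

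Etv6 spans 234 kb, chr6:134035700-134270158 on the plus strand, and had 67 peaks in 20 regions, 19 of them in the body. Its promoter peak, in all 8 libraries, had its summit between -0.561 and -0.283 kb from the start, in front of the sequence printed above. The predicted gene Gm46977 starts on the other strand at -388 bp, and the summit lay inside that gene in 6 libraries and between the starts of both genes in 2. Ser2P covered 1267 and 918 bp of the promoter window in KD and 772 and 689 bp in the controls, without overlap (18.1 points, SE 7.26, limma adjusted p = 0.371, and 0.0439 when genes without a peak are kept in the fit). Ser5P covered 661 and 819 bp in KD and 772 bp in each control.

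In the Etv6 body KD and control were ordered one way for Ser5P and the other way for Ser2P. Ser5P covered 1574 and 2065 bp in KD and 3208 and 2696 bp in the controls, so both KD values were lower, as at 16.1% of genes with a Ser5P body peak. Ser2P covered 4536 and 4734 bp in KD and 4461 and 1500 bp in the controls, so both KD values were higher, as at 30.9% of genes with a Ser2P body peak, though KD 1 and control 1 differ by little. The Ser5P difference was -0.49 points (SE 0.33; limma adjusted p = 0.719) and the Ser2P difference 0.71 points (SE 0.71; limma adjusted p = 0.680). Without Ser2P control 2 the Ser2P difference was 0.07 points, without control 1 it was 1.34 points, and after thinning to the shallowest library it was -0.27 points. A region at 127 kb was marked in all 4 Ser2P libraries and no Ser5P library. That pattern was found at 0.334% of 29631 body regions of all genes. One at 69.8 kb was marked in all 4 Ser5P libraries and both Ser2P controls, and one at 46.8 kb in all 8.

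**Figure D2:**
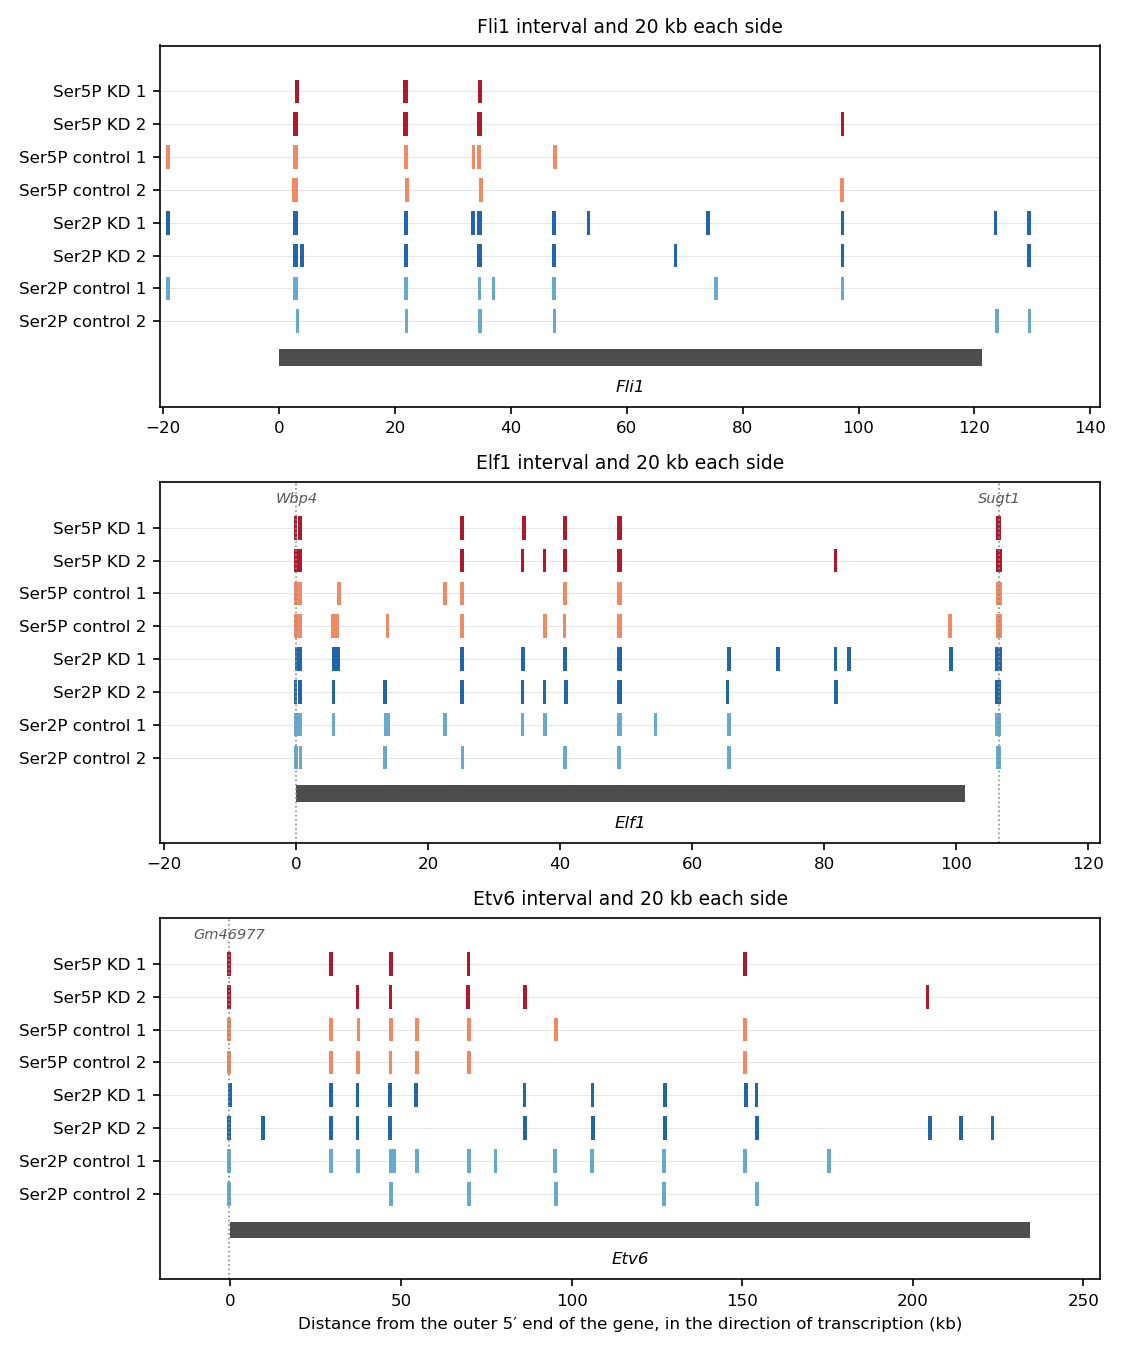
Peaks of each library along Fli1, Elf1 and Etv6 and 20 kb on either side, by distance from each outer 5′ end in kb, with 1 block per peak, narrow ones drawn at a minimum width. Fli1 has no block at 0 kb, Elf1 has 1 or 2 there and Etv6 1 in every library, and in Etv6 the block at 127 kb is found in Ser2P libraries only.

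Gabpa, at chr16:84834891-84863783 on the plus strand, had a promoter at which KD and control did not overlap for either mark. Ser5P covered 1112 and 1119 bp in KD and 978 and 964 bp in the controls (7.22 points, SE 2.65, limma adjusted p = 0.567). Ser2P covered 1071 and 1101 bp in KD and 784 and 746 bp in the controls (16.04 points, SE 3.84, limma adjusted p = 0.264). Both KD libraries were above both controls each time. Thinning left both differences as they were, but it keeps or drops whole peaks and leaves their width unchanged. It therefore cannot show whether the difference in width goes with depth. Atp5j, which encodes a subunit of mitochondrial ATP synthase, starts 966 bp away on the opposite strand, so its 5′ end lies in the same window. The RefSeq start whose sequence is printed above lies 0.233 kb inside the outer end, and the strongest summit of the region lay 0.219 kb inside it. In the body, Ser2P covered 242 and 252 bp in KD and 265 and 273 bp in the controls, a difference of -0.08 points. These values are not from 1 place. In KD 1, KD 2 and control 2 the peak lay about 1.28 kb inside the outer end, near the Atp5j 5′ end. In control 1 it lay 14.3 kb inside, with a summit of 6 reads, and was found in that library only.

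**Figure D3:**
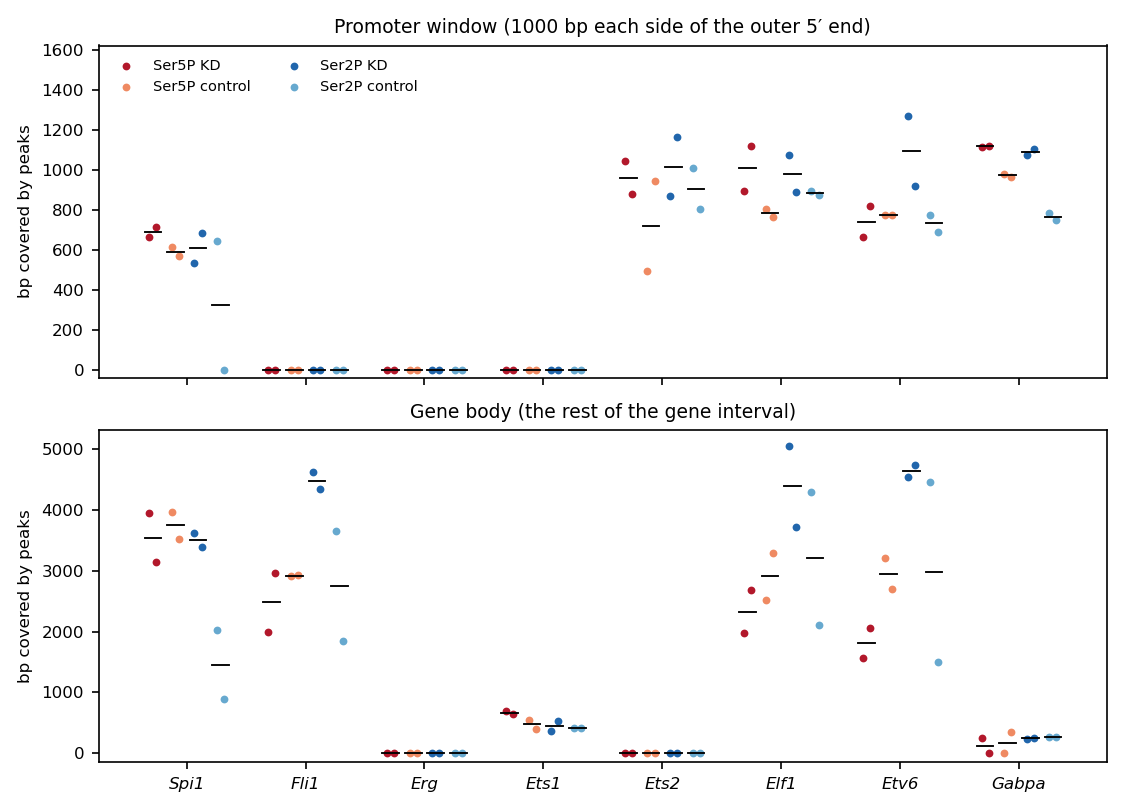
Base pairs covered by peaks in the promoter window and the body of the 8 genes; each point is 1 library, bars are means of 2 libraries, and within each gene the groups run Ser5P KD, Ser5P control, Ser2P KD, Ser2P control. Ser2P KD points lie above both Ser2P controls in the bodies of Spi1, Fli1 and Etv6 and at the promoters of Etv6 and Gabpa.

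Over the 8 genes, promoters with a Ser5P peak in all 4 libraries numbered 5 (Spi1, Ets2, Elf1, Etv6 and Gabpa), against 37.7% of all genes, and those with Ser2P in all 4 numbered 4, against 36.3%. These counts use the outer RefSeq end only. In Spi1, Fli1 and Ets1 a region at or near a GENCODE vM1 start was marked in all 8 libraries and is counted in the body. Bodies marked in all 4 libraries numbered 5 for Ser5P and 6 for Ser2P, against 19.7% and 20.1% of all genes. The Ser2P count includes Gabpa, where the body peak of control 1 lay at another place than those of the other libraries. Both KD values lay above both controls at 3 promoters for Ser5P (Spi1, Elf1 and Gabpa; 25.6% of genes with such a peak) and at 2 for Ser2P (Etv6 and Gabpa; 46.1%). For the body it was 1 gene for Ser5P (Ets1; 13.6%) and 3 for Ser2P (Spi1, Fli1 and Etv6; 30.9%), and both KD values lay below both controls for Ser5P at Etv6 (16.1%) and for Ser2P at Gabpa (4.03%). In the flanks KD was higher at 2 genes for Ser5P (Spi1 and Ets2; 20.1%) and 2 for Ser2P (Spi1 and Gabpa; 44.0%). The Ser2P flank values at Gabpa were 310 and 234 bp in KD and 0 and 229 bp in the controls. The peaks there were each found in 1 library only, at 31.0 kb (KD 1), -14.7 kb (KD 2) and 44.5 kb (control 2) from the outer 5′ end. A single window compared on its own cannot do better than an exact permutation p of 0.333 with 2 libraries against 2.

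With limma across all genes, 0 genes passed an adjusted p of 0.05 between KD and control for either mark in promoters, bodies or flanks, hence 0.0% in each fit. At an unadjusted p under 0.05, 1444 promoters were higher and 41 lower for Ser2P, 625 bodies were higher and 96 lower, and 1751 flanks were higher and 25 lower. For Ser5P the counts were 677 and 208 for promoters, 272 and 314 for bodies, and 569 and 393 for flanks. The median promoter difference over all genes tested was 1.77 points for Ser5P and 7.35 points for Ser2P, and it was above 0 at 8630 of 10049 promoters for Ser2P. Without Ser2P KD 2, 456 Ser2P promoters and 961 Ser2P bodies passed, none of them at these 8 genes. Among the 8 genes, Spi1 flanks (both marks), the Spi1 body (Ser2P) and the Gabpa promoter (Ser2P) had an unadjusted p under 0.05.

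**Figure D4:**
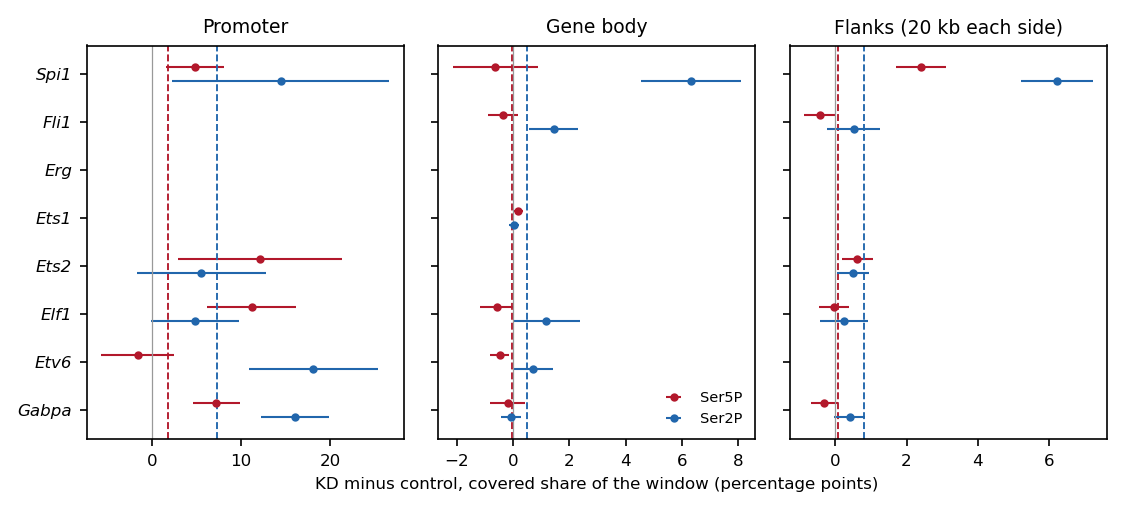
KD minus control difference in the covered share of each window, in percentage points, for Ser5P and Ser2P; points are limma estimates, bars are 1 SE, dashed lines are the median of all genes tested, and genes without a peak in the window have no point. The Spi1 flank stands at 6.22 points for Ser2P and 2.41 points for Ser5P, and no point passed the adjusted threshold.

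Ser5P and Ser2P were then set against each other over all 8 libraries, with cell line as a covariate. Of all genes, 66 promoters (0.638%) had more Ser5P coverage and 15 (0.145%) less, 1 body (0.0102%) had more and 1 (0.0102%) less, and 92 flanks (0.657%) had more and 70 (0.5%) less. None of the 8 genes was among them, and leaving out 1 library at a time moved these totals to between 24 and 86 promoters, 1 and 7 bodies, and 51 and 800 flanks (800 without Ser2P control 2). In the body of Spi1, coverage was 3644 ± 392 bp for Ser5P and 2478 ± 1276 bp for Ser2P (SD, n = 4 each, KD and control together), a difference of 3.60 points (SE 1.75; limma adjusted p = 0.641); it was 2.202 points without Ser2P control 2. In Elf1 it was 2616 ± 542 bp for Ser5P and 3797 ± 1250 bp for Ser2P (SD, n = 4 each), and in Etv6 it was 2386 ± 715 bp for Ser5P and 3808 ± 1543 bp for Ser2P (SD, n = 4 each). Each of these 3 differences was smaller than the SD of the Ser2P libraries. The flanks of Fli1 had the smallest p of the 8 genes, -1.23 points (SE 0.45; limma adjusted p = 0.241), with 86.5 ± 173 bp for Ser5P and 567 ± 331 bp for Ser2P. Merged over libraries, 21 of 52 body regions of these genes were found with Ser2P alone (40.4%, against 41.1% of 29631 body regions of all genes). Those with Ser5P alone numbered 2 (3.85% against 18.0%). Those in all 4 Ser2P libraries and no Ser5P library also numbered 2 (3.85% against 0.334%), at Elf1 and Etv6.

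Among 20 further ETS genes, 9 had a Ser5P promoter peak in all 4 libraries, among them Elf2, Elk4, Erf and Gabpb2, and 7 had a Ser2P one, against 37.7% and 36.3% of all genes, which are shares near those of the list. The only calls in their bodies were Etv4, KD-only for both marks (1.0% of genes for Ser5P and 2.05% for Ser2P), and Etv5, control-only for Ser2P (0.594%). Of 24 genes known as PU.1 targets in myeloid cells, Itgb2, Fcgr1 and Cyba had Ser5P at the promoter in all 4 libraries, against 37.7% of all genes, and 14 had it in none, near the 54.5% of all genes. Csf2rb, which encodes a cytokine receptor chain, was control-only for Ser5P (0.446%) and KD-only for Ser2P (1.1%) at the promoter, and KD-only for Ser2P in the body. Fcgr1, an Fc receptor gene, had 5.83 points more Ser5P than Ser2P coverage in its flanks (SE 0.98, limma adjusted p = 0.0214). With 20 kb flanks, no replicate block and genes without a peak left out, no other gene of these lists passed the limma threshold between the marks or between KD and control. Of 11 factors that work with ETS proteins in blood, only Tal1 and Myb had both marks at the promoter in every library. Of all genes, 37.7% had Ser5P there in all 4 libraries and 36.3% had Ser2P. No Ser5P promoter peak was found in any library at 8 of the 11, against 54.5% of all genes. In 6 bodies, including Runx1, Gata1 and Lmo2, Ser5P was found in all 4, against 19.7% of all genes.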

How the data were processed

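MACS2 peak lists of 8 libraries were used. The submitters' processing notes name MACS2 2.2.7.1, Bowtie2 2.3.5, deepTools 3.3.1, Picard 2.21.4, SAMtools 1.9 and cutadapt 2.7, and the builds GRCm38 and mm10. Settings, and whether a control library was used, were not given in these sources. The deposited columns used were fold enrichment (a ratio) and the −log10 p-value and −log10 q-value of each peak; the score the authors deposited was not used. Peaks on 21 chromosomes were kept, and 24 to 30 per list on other sequences were left out. Total read depth was not used here; summit and background pileups were solved from fold and p with a tolerance of 0.001, which worked for over 99.9% of peaks, and the most frequent background served as relative depth.

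Gene intervals came from RefSeq GRCm38.p6. Strand came from its promoter table (17492 genes), from GENCODE vM1 by symbol (3649) or by synonym (394), and 352 of 21887 genes without one were left out. The NCBIM37 genome supplied is another build, and none of its coordinates were used; distances from the 3′ end in GENCODE vM1 were compared instead. The share of each window covered by peaks was tested with limma 3.58.1 (R 4.3.3), KD against control within a mark and Ser5P against Ser2P with cell line as covariate, leaving out genes without a peak, with Benjamini-Hochberg adjustment over all genes tested. Coverage moves with depth and peak width. The fits and the pileup solution were tested on simulated data.

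The 8 genes, the gene lists and the rule for named genes (all 8, up to 4 called genes per list, and the 5 genes nearest to Spi1) were chosen with earlier results of these data known. Thinning to the shallowest library and the limits along Spi1 were chosen after seeing the data. The thinning kept or dropped whole peaks and did not change their width. Replicate numbers were not taken to pair the libraries. Correlations of same-numbered deviations were 0.0379 and 0.0257 for Ser5P promoters and bodies, and 0.00187 and 0.20 for Ser2P promoters and bodies. With 2 pairs this cannot show whether the numbers pair, and flanks were not checked.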

Additional observations from a re-analysis of the deposited data

Results flagged for a closer look

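The Etv6 body was set aside because KD and control were ordered in opposite directions for the 2 marks. Peak coverage, KD minus control, was -1132.5 bp for Ser5P, with both KD libraries below both controls, and 1654.5 bp for Ser2P, with both KD libraries above both controls. The difference between these effects was -1.19 percentage points of the body (SE 0.78; limma interaction, adjusted p = 0.727), which misses the threshold. Over all genes, 1 body of 9848 passed that interaction test, and 674 had an unadjusted p under 0.05. The Ser2P order rests largely on control 2, at 1500 bp, since control 1 had 4461 bp against 4536 and 4734 bp in KD. Leaving out 1 library moved the Ser2P difference of 0.71 points to between 0.07 and 1.34 points. For Ser2P the KD libraries are the deeper ones. After thinning to the shallowest library the Ser2P difference was -0.27 points, in the same direction as that of Ser5P. Thinning can only drop peaks, and it left 22323 and 21470 peaks in the KD lists against 25152 and 20790 in the controls. Whether the order goes with depth was not tested.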

How the results depend on the processing

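Counts of genes past the limma threshold depended on the fit. Between KD and control, where the count was 0 for each mark and window, keeping genes without a peak gave 337 promoters, 363 bodies and 45 flanks for Ser5P, and 1525 promoters, 347 bodies and 21 flanks for Ser2P; the genes added are at 0 in every library. The arcsine square root gave 2 Ser5P bodies, and 50 kb flanks gave 137 Ser2P flanks. Leaving out 1 library gave 0 to 456 Ser2P promoters and 0 to 961 Ser2P bodies, the higher values without KD 2, and 0 in the other 4 fits.

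Between Ser5P and Ser2P, keeping genes without a peak gave 29 promoters, 20 bodies and 80 flanks. The arcsine gave 32 bodies and 252 flanks (97 higher, 155 lower, against 92 and 70). A −log10 q of at least 5 gave 12 bodies; equal numbers of peaks gave 15 bodies and 343 flanks (240 higher, 103 lower), and 10 kb flanks gave 99. Thinned, flanks numbered 138 higher and 51 lower. Leaving out 1 library gave 24 to 86 promoters, 1 to 7 bodies and 51 to 800 flanks.

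With the replicate number as a block, 818 Ser2P flanks passed between KD and control (813 higher), and between the marks 39 promoters and 1 body passed. In that replicate block fit the Spi1 Ser2P flank difference, 6.22 points, had an adjusted p of 5.38e-05. The numbers share no stated batch, and pairing was not checked in the flanks, so this says nothing of a stronger effect.

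Of 162 repeats of 13 single-gene results, 158 kept their direction and side of the threshold. None of the 13 passed in the main fit, so keeping the side mostly meant not passing again. The Ser2P Etv6 promoter, which passed when genes without a peak were kept, was not among the 13. The Spi1 Ser2P flank passed with the block and with 50 kb flanks (3.20 points). The Etv6 Ser2P body turned to -0.27 points when thinned, and the Fli1 body, Ser5P minus Ser2P, to 0.0073 points with equal numbers of peaks; the causes were not tested.

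Presence calls at the 8 genes ranged, leaving out 1 library, over 0 to 1 for Ser5P upstream, 0 to 2 for Ser5P downstream, 0 to 1 for Ser2P promoters, 0 to 1 for Ser2P upstream and 1 to 2 for Ser2P downstream. Equal numbers of peaks gave 1 Ser5P downstream call. The 1 Ser2P downstream call became 0 at a −log10 q of at least 5, with equal numbers and with 50 kb flanks.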
